A study of Mus musculus with 6 samples.

Results

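The cells described here are Ccr2-positive liver monocytes with a high mean score of F13a1, Ass1 and Pclaf, and they number 913 of the 23008 CD45+ cells in 6 single-cell RNA-seq libraries. They were proposed as immature proliferating Ly6c monocytes. Members were chosen on the deposited scaled scores, in which each gene has a mean near 0 and an SD of 1 within a site: a mean score of Ccr2, Ms4a6c and Fn1 above 0.8, a mean of F13a1, Ass1 and Pclaf above 1, a mean of Fcnb and Cebpe at or below 1 (which leaves out neutrophil precursors), and a mean of Trem2 and Ccl24 at or below 1.5 (which leaves out lesion macrophages). They are called F13a1/Ass1/Pclaf monocytes below, after the genes of the second limit, though a member need not hold a transcript of each. Since the rule uses measured values, the levels of these genes are given as a description.

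The mice were of the Balb/c strain and carried the mouse mammary tumour line 4T07, injected into the heart. The tumour cells carried either a scramble shRNA (Ctrl) or an shRNA against Tim3 (Tim3-KD), so the knockdown was in the tumour cells and not in the monocytes. Pieces of liver were taken at day 3 as tumour-free adjacent tissue (AT) and as micrometastasis, and at day 12 as macrometastasis, and the CD45+ cells were sorted. Each of the 6 groups was 1 library, prepared from a pool of 2 mice, whose age is not given in the sources used here. Since no group has a replicate, groups are set side by side without a test. All intervals below are 95% intervals that cover counting error only.

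Classical monocytes leave the bone marrow through the chemokine receptor Ccr2 and carry the surface protein Ly6C in the mouse. Their marrow precursors divide, and they share with neutrophil precursors a set of granule enzymes, which includes neutrophil elastase (Elane), proteinase 3 (Prtn3), myeloperoxidase (Mpo) and cathepsin G (Ctsg). As monocytes mature these genes are shut off, and receptors such as Csf1r gain in level. F13a1 encodes the A subunit of coagulation factor XIII, Ass1 the argininosuccinate synthase of arginine synthesis, and Pclaf a factor that binds the replication clamp PCNA.

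Genes of cell division made up most of those higher in the F13a1/Ass1/Pclaf monocytes than in the other Ccr2 monocytes, and the promoters of 3 division genes are shown: Ccnb2 (cyclin B2), Top2a (topoisomerase II alpha) and Cdk1 (the kinase that drives entry into mitosis). They were chosen for display after their motifs were known, and of the 3 only Ccnb2 had enough UMIs in every library to enter that comparison. The windows run from 250 bases before to 50 bases after the RefSeq transcript start (GRCm38.p6): chr9:70421505-70421804 on the minus strand for Ccnb2, chr11:99024140-99024439 on the minus strand for Top2a and chr10:69352863-69353162 on the minus strand for Cdk1. Capitals mark the cell cycle homology region (CHR, TTTGAA or its reverse complement), an element known from genes that peak late in the cell cycle, and the CCAAT box (CCAAT or its reverse complement).
Ccnb2: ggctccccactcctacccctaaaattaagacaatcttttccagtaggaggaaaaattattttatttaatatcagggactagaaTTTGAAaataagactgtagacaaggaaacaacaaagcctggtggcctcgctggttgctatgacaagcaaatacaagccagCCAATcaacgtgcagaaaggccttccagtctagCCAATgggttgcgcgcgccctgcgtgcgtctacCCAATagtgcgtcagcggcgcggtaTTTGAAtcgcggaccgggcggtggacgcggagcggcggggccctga
Top2a: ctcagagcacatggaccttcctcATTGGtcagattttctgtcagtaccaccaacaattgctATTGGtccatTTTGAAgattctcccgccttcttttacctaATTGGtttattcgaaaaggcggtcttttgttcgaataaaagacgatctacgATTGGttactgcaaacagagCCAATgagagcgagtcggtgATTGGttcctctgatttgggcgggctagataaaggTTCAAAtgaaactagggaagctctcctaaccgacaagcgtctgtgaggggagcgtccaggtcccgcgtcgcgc
Cdk1: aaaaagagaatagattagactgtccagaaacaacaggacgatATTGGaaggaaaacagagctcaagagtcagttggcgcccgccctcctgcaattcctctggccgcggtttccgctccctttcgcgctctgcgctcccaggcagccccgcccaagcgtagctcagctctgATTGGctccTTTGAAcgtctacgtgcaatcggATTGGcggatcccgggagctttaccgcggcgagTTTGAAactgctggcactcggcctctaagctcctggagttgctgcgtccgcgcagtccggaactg

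Both motifs were searched on both strands, and neither contains the other. The CHR letters were found in the promoter of 8 of 12 mitosis genes, the 13 measured at all sites without Stmn1, which matched no promoter, against 20.2% of 27025 genes with a promoter in the RefSeq table. The CCAAT letters were found in 10 of 12, against 41.1%, and both together in 8 of 12, against 7.97%. Of 5 granule genes (Elane, Mpo, Prtn3, Ctsg and Ms4a3), 2 held the CHR letters, 2 the CCAAT letters and none held both. Of 5 replication genes (Mcm3, Rrm2, Casp8ap2, Dut and Lig1), none held the CHR letters and 3 held the CCAAT letters. These are matches of letters and not sites of binding.

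The number of F13a1/Ass1/Pclaf monocytes differed between libraries. AT Ctrl held 91 of 1803 cells (5.05%, Clopper-Pearson interval 4.08 to 6.16%). Micrometastasis Ctrl held 173 of 5106 (3.39%, 2.91 to 3.92%) and micrometastasis Tim3-KD 319 of 5142 (6.20%, 5.56 to 6.90%). Macrometastasis Ctrl held 109 of 4913 (2.22%, 1.83 to 2.67%) and macrometastasis Tim3-KD 221 of 5502 (4.02%, 3.51 to 4.57%). AT Tim3-KD held 0 of 542, which allows a share of up to 0.554% (3 counts of 542) or 0.678% (upper Clopper-Pearson limit), and only 13 other Ccr2 monocytes. That library enters no comparison of levels. Tim3-KD minus Ctrl was 2.82 percentage points in micrometastasis (Newcombe interval 1.99 to 3.65), 1.80 points in macrometastasis (1.13 to 2.47) and, in the opposite direction, -5.05 points in AT (-6.16 to -3.89). Cells with a mean score of Fcnb and Cebpe above 1 moved in the same directions. In micrometastasis they numbered 260 under Ctrl against 766 with Tim3-KD, in macrometastasis 207 against 314, and in AT 221 against 0. AT also held 640 neutrophils (at least 2 Cxcr2 UMIs) under Ctrl against 19 with Tim3-KD. Other Ccr2 monocytes had a lower share with Tim3-KD at each site (6.55 against 10.6% in micrometastasis). Whether the differences are particular to the members was not tested. With 1 pool per group the spread between mice is not known.

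Measured against the Ccr2 monocytes alone, that is the members and the cells that passed the 3 other limits, the members made up 46.2% in AT Ctrl (of 197), 24.2% in micrometastasis Ctrl (of 715), 48.6% in micrometastasis Tim3-KD (of 656), 36.8% in macrometastasis Ctrl (of 296) and 52.1% in macrometastasis Tim3-KD (of 424). The Tim3-KD share was again above the Ctrl share at both metastasis stages, and the intervals did not overlap. The score scale was set at each site by all cells of that site. When the scores were scaled once over the 6 libraries, the share of all cells came to 4.43% and 7.10% in micrometastasis and to 0.814% and 2.96% in macrometastasis (Ctrl and Tim3-KD), so the order of Ctrl and Tim3-KD was kept and macrometastasis Ctrl lost most of its members. The order was reversed in macrometastasis only where cells with UMIs of another cell type list were removed, which left few members, as given in the closing section.

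**Figure D1:**
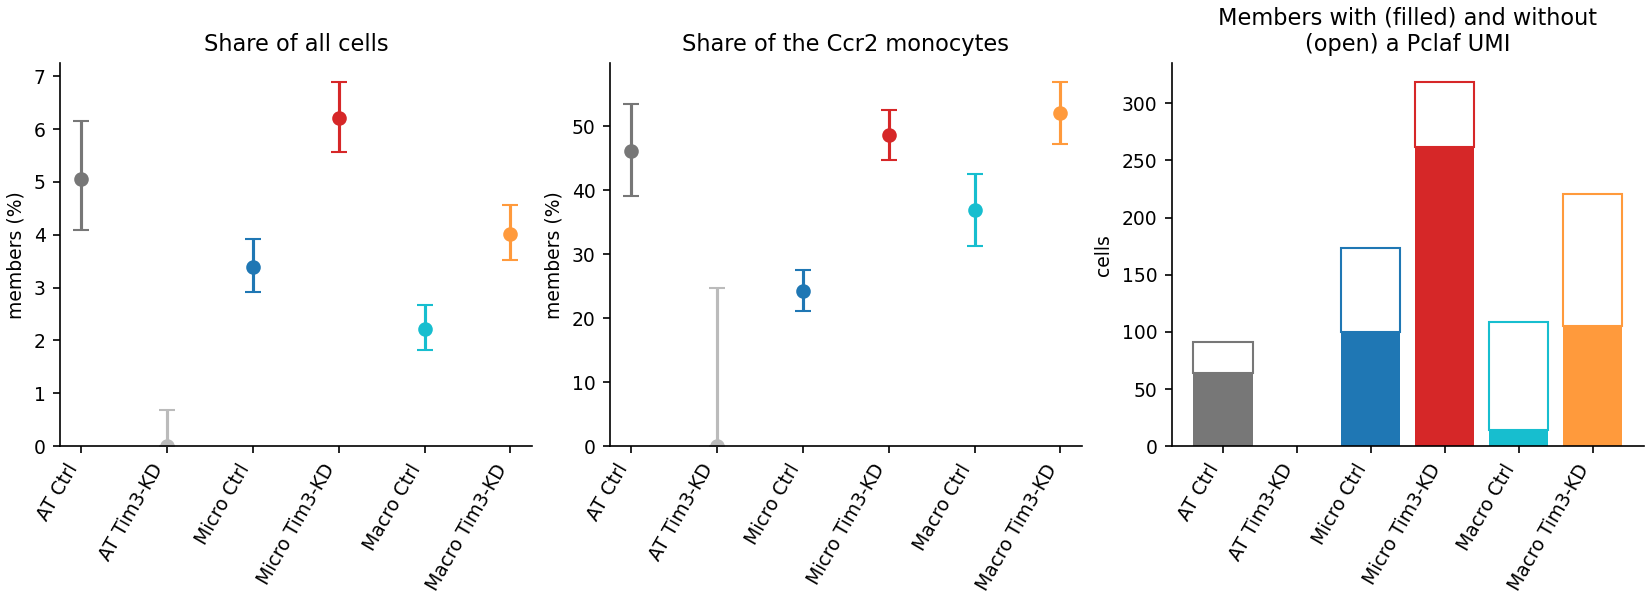
F13a1/Ass1/Pclaf monocytes (members) by library: as a percentage of all cells (left), as a percentage of Ccr2 monocytes (middle), both with exact 95% intervals, and as numbers of cells with (filled) and without (open) a Pclaf UMI (right). The Tim3-KD libraries lie above the Ctrl libraries at both metastasis stages, AT Tim3-KD has 0 members, and 14 of 109 members of macrometastasis Ctrl hold a Pclaf UMI.

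Many cells lay just inside or just outside the limit on F13a1, Ass1 and Pclaf. Within 0.2 of it lay 15, 40, 25, 32 and 28 members and 26, 44, 56, 21 and 31 other Ccr2 monocytes (AT Ctrl, micrometastasis Ctrl and Tim3-KD, macrometastasis Ctrl and Tim3-KD, an order kept below where 5 values are given). The rule cuts a range and not a separate cluster. The members were deeper than most cells, with a median of 25090 UMIs per cell in AT Ctrl, 14126 and 17852 in micrometastasis and 10734 and 14314 in macrometastasis, while the median over all cells of these 5 libraries was between 6300.0 and 9360 UMIs. Between 0 and 11 cell barcodes were shared by any pair of libraries, and no barcode belonged to a member in both.

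The marker genes of the label gave a mixed result. Levels are UMIs of a gene per 1000000 UMIs of the same cells over all genes (CPM). F13a1 stood at 803, 813, 883, 662 and 656 CPM, and it was found in 89.9 to 99.4% of members of each library. Ccr2 stood at 687, 823, 514, 828 and 683 CPM and was found in 98.2 to 100% of members. Ly6c2, which the rule did not use, stood at 1645, 991, 1319.5, 957 and 1163 CPM and was found in 95.6, 95.4, 99.7, 80.7 and 90.5% of members. F13a1 and Ccr2 belong to the rule, so their levels do not bear on the label. In the other Ccr2 monocytes Ly6c2 stood at 1262, 826, 971, 567 and 577 CPM, so the members lay above them by 0.26 to 1.01 on the log2 scale. In the 1768 cells with a mean score of Fcnb and Cebpe above 1, called Fcnb/Cebpe cells here after these genes of neutrophil precursors, Ly6c2 was between 70.5 and 189 CPM.

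The level of Ly6c2 can be compared between libraries only with a limit. A second feature of the files holds reads that could come from Ly6c1 or Ly6c2, and it was at 0 in every cell of AT Ctrl and micrometastasis Ctrl but at 1718, 1151 and 1499 CPM in the members of micrometastasis Tim3-KD, macrometastasis Ctrl and macrometastasis Tim3-KD. Reads shared by near-identical genes were therefore not counted alike in all libraries. The same holds for features that join H2ac histones, Eif4a1, Mif, Hmga1 or Tpt1 to their copies, and the levels of these genes are not read as differences. The counts of genes past 2-fold given below include such joined features. Without them, 36 genes were higher and 159 lower in Tim3-KD than in Ctrl in micrometastasis, and 125 higher and 172 lower in macrometastasis.

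Ass1 and Pclaf, in contrast, set macrometastasis Ctrl apart. Ass1 stood at 289.5, 191, 226, 61.1 and 197 CPM and Pclaf at 547, 464, 581, 36.3 and 431 CPM. Pclaf was found in 70.3, 57.8, 82.1, 12.8 and 47.5% of members, and Ass1 in 87.9, 85.5, 82.4, 36.7 and 65.2%. In macrometastasis Ctrl the median member score was 4.21 for F13a1, -0.27 for Ass1 and -0.28 for Pclaf, so its typical member passed through F13a1. Pclaf was also missing in 116 of 221 members of macrometastasis Tim3-KD and in 73 of 173 of micrometastasis Ctrl. The name proliferating monocytes therefore goes against the data in most members of macrometastasis Ctrl, and it does not describe the members without Pclaf in the other libraries, whose mitosis genes are given below.

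Genes of DNA replication and mitosis were, like Pclaf, lowest in the members of macrometastasis Ctrl. Pclaf is itself a replication gene, so a high level of its companions in the members is in part set by the rule. Top2a, which untangles chromosomes, stood at 424.5, 219.5, 393, 25.6 and 327 CPM. Mki67, a protein of the dividing chromosome's surface, stood at 355, 225, 349.8, 61.1 and 274 CPM. Ccnb2, whose promoter is printed above, stood at 141, 147, 162, 45.4 and 124 CPM. Rrm2, a subunit of the reductase that makes deoxynucleotides, stood at 177, 155, 229, 6.60 and 177 CPM. H1f5, a linker histone made in S phase, stood at 771, 368, 1033, 46.2 and 748 CPM. In the other 4 libraries micrometastasis Ctrl was the lowest for Top2a, Mki67, Rrm2 and H1f5, whereas Pclaf was lowest there in macrometastasis Tim3-KD.

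To compare cells of unlike depth, each cell was thinned to 1500 UMIs. A share of 52.7% of the F13a1/Ass1/Pclaf monocytes of AT Ctrl then held at least 2 UMIs of the 13 mitosis genes measured at all sites (Clopper-Pearson interval 42.0 to 63.3%), 43.4% in micrometastasis Ctrl (35.9 to 51.1%), 71.2% in micrometastasis Tim3-KD (65.9 to 76.1%), 15.6% in macrometastasis Ctrl (9.36 to 23.8%) and 42.5% in macrometastasis Tim3-KD (35.9 to 49.3%). The intervals of Ctrl and Tim3-KD did not overlap at either stage. The rule helps to set these shares, since Pclaf is a replication gene: with Pclaf left out of the rule they were 33.6, 23.0, 48.2, 13.5 and 33.7%. In the other Ccr2 monocytes of the same libraries the share was 3.77, 2.95, 3.56, 6.95 and 6.90%. B cells, taken as cells with a UMI each of Cd79a, Cd79b and Ms4a1 and none of Cd3d, Cd3e or Cd3g, gave 5.39, 5.86, 5.88, 5.22 and 6.96%, and neutrophils with at least 2 UMIs of Cxcr2, a receptor of mature neutrophils, which do not divide, gave between 9.69 and 14.5%. The members' interval in macrometastasis Ctrl reached the level of the neutrophils, and those of the other 4 libraries lay above all 3 kinds of cells. The Fcnb/Cebpe cells gave 57.0, 64.2, 78.9, 40.1 and 48.7%. Without thinning the members' shares were 91.2, 78.0, 89.3, 45.0 and 71.9%.

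**Figure D2:**
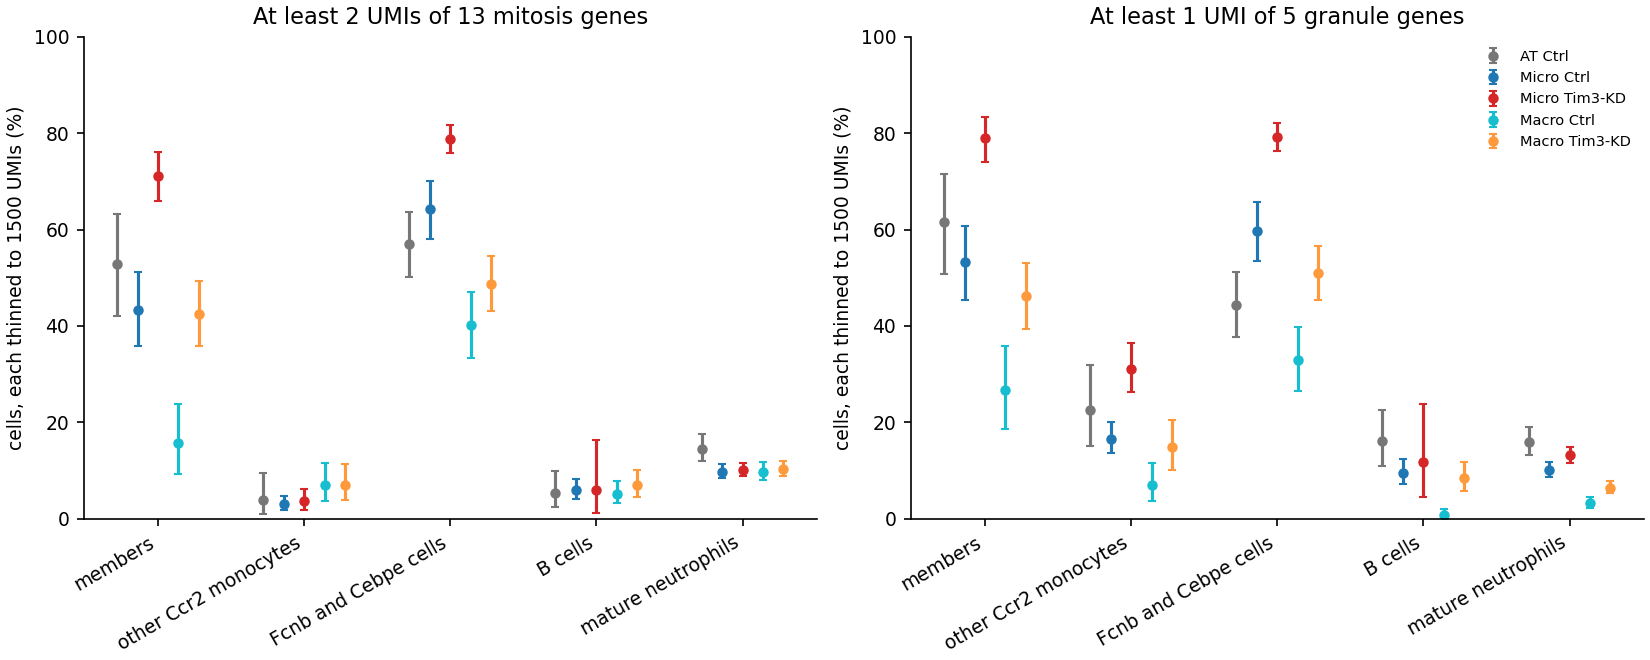
Share of cells, each thinned to 1500 UMIs, with at least 2 UMIs of 13 mitosis genes (left) and with at least 1 UMI of 5 granule genes (right), by cell group and library, with exact 95% intervals. Members of 4 libraries lie between 42.5 and 71.2% for mitosis, far above the other Ccr2 monocytes, and those of macrometastasis Ctrl at 15.6%.

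Granule genes of early myeloid cells, which the rule did not use, were also found in the members. Elane stood at 318.5, 206, 685, 18.2 and 581 CPM, with Poisson intervals of 298 to 340.3, 189.7 to 223, 664.5 to 706, 11.4 to 27.5 and 559 to 603. Prtn3 stood at 1350.0, 1107, 2541, 234 and 1785 CPM. Mpo stood at 227, 107, 441, 10.7 and 372 CPM, and Ctsg at 258, 192, 738, 5.78 and 523 CPM. Ms4a3, a membrane protein of granulocyte and monocyte progenitors, stood at 69.3, 45.6, 156, 4.95 and 88.7 CPM. All 5 genes were highest in micrometastasis Tim3-KD and lowest in macrometastasis Ctrl, and each had the same order in between, with macrometastasis Tim3-KD above AT Ctrl and AT Ctrl above micrometastasis Ctrl.

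In the other Ccr2 monocytes, Elane stayed between 4.22 and 20.6 CPM and Prtn3 between 118 and 257 CPM. In the Fcnb/Cebpe cells Elane was between 1229.8 and 4879 CPM and Prtn3 between 2583 and 8675 CPM, above the members of each library. After thinning to 1500 UMIs, 61.5, 53.2, 79.0, 26.6 and 46.2% of members held a UMI of the 5 granule genes, against 22.6, 16.6, 31.2, 6.95 and 14.8% of the other Ccr2 monocytes and 16.2, 9.57, 11.8, 0.68 and 8.41% of B cells, which should lack them. Median depth was given above for the members and was 5279, 3663, 4318, 3921 and 4249 UMIs in B cells, whose share is the background here. The receptor Kit, the mark of stem and early progenitor cells, was at 0 to 0.646 CPM in the members and Sox4 at 0 to 3.01 CPM, while Cd34 was between 4.13 and 24.7 CPM. Elane was found in 59.3, 37.0, 71.8, 8.26 and 37.1% of members, so most members of micrometastasis Ctrl, macrometastasis Ctrl and macrometastasis Tim3-KD held none of its UMIs.

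**Figure D3:**
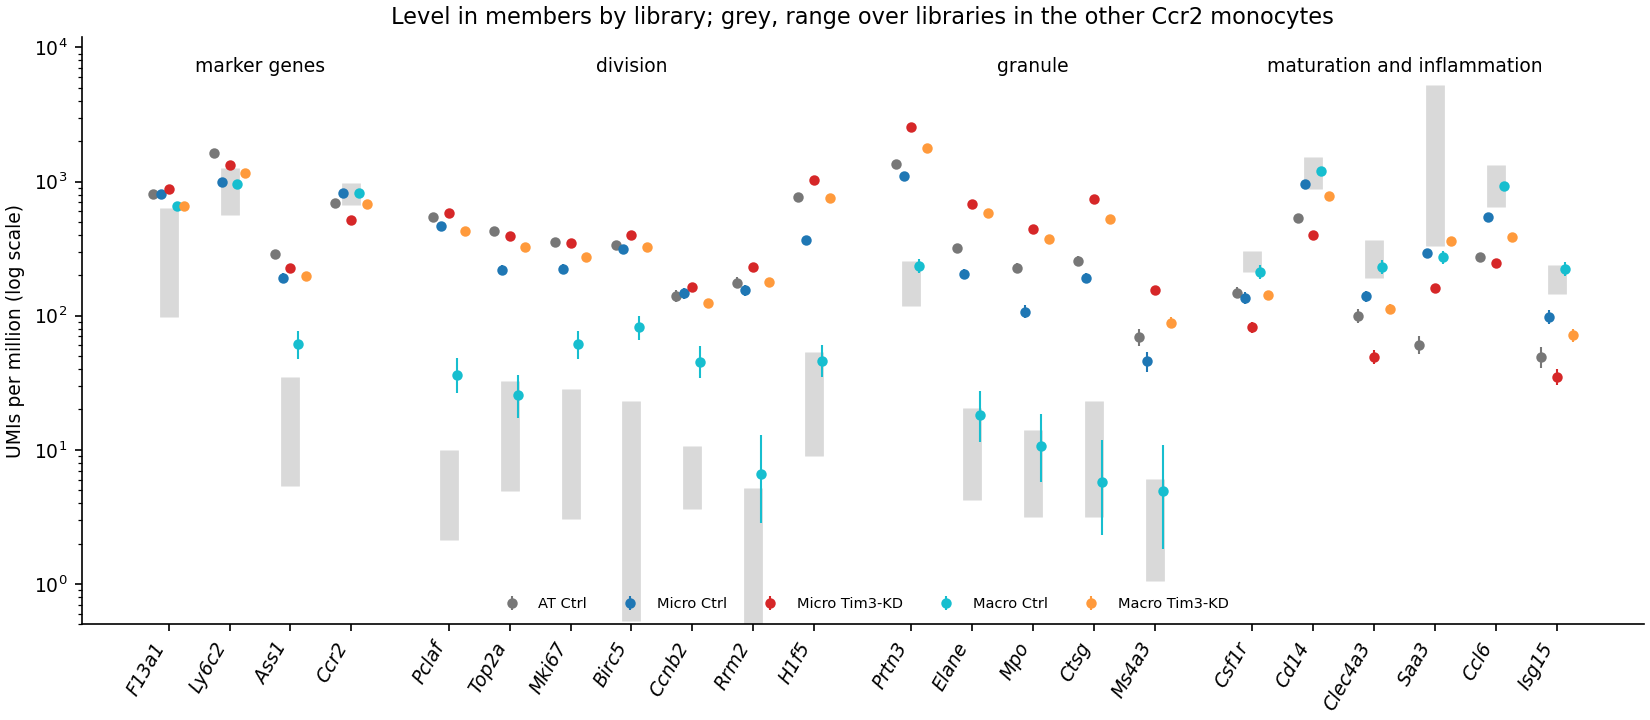
Level of marker, division, granule and maturation genes in F13a1/Ass1/Pclaf monocytes (members) of 5 libraries, in CPM on a log scale, with Poisson intervals, beside the range over the same libraries in the other Ccr2 monocytes (grey; bars are cut off at 0.5, as for Rrm2). For the 5 granule genes the points of macrometastasis Ctrl fall within the grey bars and those of the other 4 libraries above them; for most division genes macrometastasis Ctrl lies between the bar and the other libraries.

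The members were compared with the other Ccr2 monocytes within each library, over 598 genes held at all 3 sites with at least 50 UMIs in each library. Past 2-fold in all 5 libraries, 11 genes were higher in the members (1.84%) and 21 lower (3.51%). Since the cells were split on the rule genes, this is a description. The 7 mitosis genes among the 11 were Birc5, Stmn1, Mki67, Cenpf, Ube2c, Ccnb2 and Cks2, of 8 mitosis genes tested. The survivin gene Birc5 had a median log2 difference of 5.66 over the libraries (3.79 to 6.70) and the microtubule regulator Stmn1 one of 5.23 (1.77 to 5.83). H1f5 differed by 5.02 (2.34 to 6.36) and the inhibitor of granule proteases Serpinb1a by 2.04 (1.14 to 2.59). Prtn3 (3.30), the histone variant H2ax (3.07), H4c4 (2.705), Hmgn2 (2.40), Tubb5 (2.38) and Pmf1 (1.88) passed 2-fold in 4 libraries and lay below it, at 0.87 to 0.97, in macrometastasis Ctrl. Without that library, 26 genes were higher and 77 lower. Ass1, a rule gene, differed by 3.05.

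Lower in the members were class II genes of antigen display and some chemokine genes. H2-Eb1 (-2.84), H2-Ea (-2.59), H2-Aa (-2.51) and H2-Ab1 (-2.50), which encode the class II molecules, were lower past 2-fold in all 5 libraries. So were the chemokine genes Ccl5 (-3.84), Cxcl1 (-2.58) and Cxcl16 (-2.46), the lipid transfer genes Pltp (-4.27) and Apoc1 (-2.57), the Fc receptor gene Fcgr4 (-2.52), the survival gene Bcl2a1d (-2.52) and the acute phase gene Saa3 (-2.45). The complement gene Cfb (-2.45) and the transcription factor gene Batf3 (-2.75) passed in 4 libraries, and Batf3 was at 0.11 in macrometastasis Ctrl. By list, 4 of 5 tested class II genes, 3 of 14 chemokines and cytokines, 2 of 15 inflammatory genes and 1 of 9 macrophage and lipid genes were lower in all 5 libraries, and 0 of 23 interferon genes, though 9 of those 23 lay below 0 in each of the 5. The median of all 598 genes was -0.33. The other Ccr2 monocytes also held markers of other cells: the summed 12 Kupffer genes stood at 84.4, 477, 758, 993 and 3664 CPM there and at 6.53, 14.8, 20.5, 77.6 and 85.9 CPM in the members, and the summed 8 NK genes reached 651 CPM in the other monocytes of macrometastasis Ctrl. Their part in these differences was not tested.

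Monocyte genes were higher in the members than in the Fcnb/Cebpe cells, which the limits on Ccr2, Ms4a6c and Fn1 in part set. Of 768 genes, 204 were higher in the members past 2-fold in all 5 libraries (26.6%) and 73 lower (9.51%), and 12 of the 15 tested classical monocyte genes were among the higher. Irf8, the transcription factor that directs myeloid cells to monocytes, stood at 197, 237, 328, 176 and 272 CPM in the members and at 2.00 to 14.3 CPM in the Fcnb/Cebpe cells. Klf4 and the proteoglycan gene Vcan were higher by a median log2 difference of 5.36 and 5.58, the calcium-binding S100a10 and S100a4 by 6.24 and 5.78, and the scavenger receptor genes Msr1 and Colec12 by 5.34 and 5.59. The interferon-inducible Ifi209 (6.25) and Ifi202b (5.402), Ms4a4c (6.08), Crip1 (6.10), Emp1 (5.79), Id3 (5.60), Nrip1 (5.59) and Mcub (5.57) were higher as well.

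The lower genes included 8 of 11 tested mature neutrophil genes and 7 of 12 neutrophil precursor genes, which the limit on Fcnb and Cebpe in part sets, while of 18 inflammatory genes 3 were lower and 5 higher, and of 9 macrophage and lipid genes 2 were lower and 5 higher. Lactoferrin (Ltf) differed by -9.81 on the log2 scale, Olfm4 differed by -8.20, the neutrophil mark Ly6g by -7.34, Orm1 by -7.44, Pglyrp1 by -6.82, Ceacam10 by -7.22 and Cd63 by -6.73. Cstdc6 and Stfa3, of the stefin inhibitors, differed by -8.64 and -7.26. In the mitosis list, 0 of 13 tested genes passed 2-fold in all 5 libraries in either direction, and the median log2 difference of the list was 0.15 beside 0.67 over all 768 genes.

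Members with and without a Pclaf UMI were then set side by side. The split was made after the values were seen, and detection rises with depth: the median depth was 32939, 19904, 20882, 12470 and 28298 UMIs with Pclaf and 16899, 10487, 9414, 10681 and 11676 without. With Pclaf, the 13 mitosis genes summed to 4289, 3805, 4294, 3817 and 4729.6 CPM, and without it to 225, 205, 298, 292 and 238 CPM. With Pclaf, the 5 granule genes summed to 2611, 2124, 4931, 721 and 4628 CPM, and without it to 334, 336, 583, 175 and 283 CPM. Macrometastasis Ctrl thus had 14 cells with Pclaf whose mitosis level was like that of the other libraries and whose granule level was not.

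Ly6c2 was high in both kinds. It stood at 1681, 973, 1318, 762 and 1223 CPM with Pclaf and at 1471, 1041, 1341, 1001 and 1021 CPM without. The cells without Pclaf held more of the endotoxin co-receptor Cd14 (651, 1592, 885, 1292 and 1555 CPM against 506, 742, 352, 771 and 450.1 CPM) and more of the chemokine Ccl6 (612, 1019, 755, 972 and 789 CPM against 205, 373, 198, 702 and 222 CPM). In every one of the 5 libraries both genes were higher without Pclaf. Havcr2, the gene of Tim3 itself, was low in both kinds, at 2.13 to 9.12 CPM with Pclaf and 7.55 to 50.01 CPM without.

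**Figure D4:**
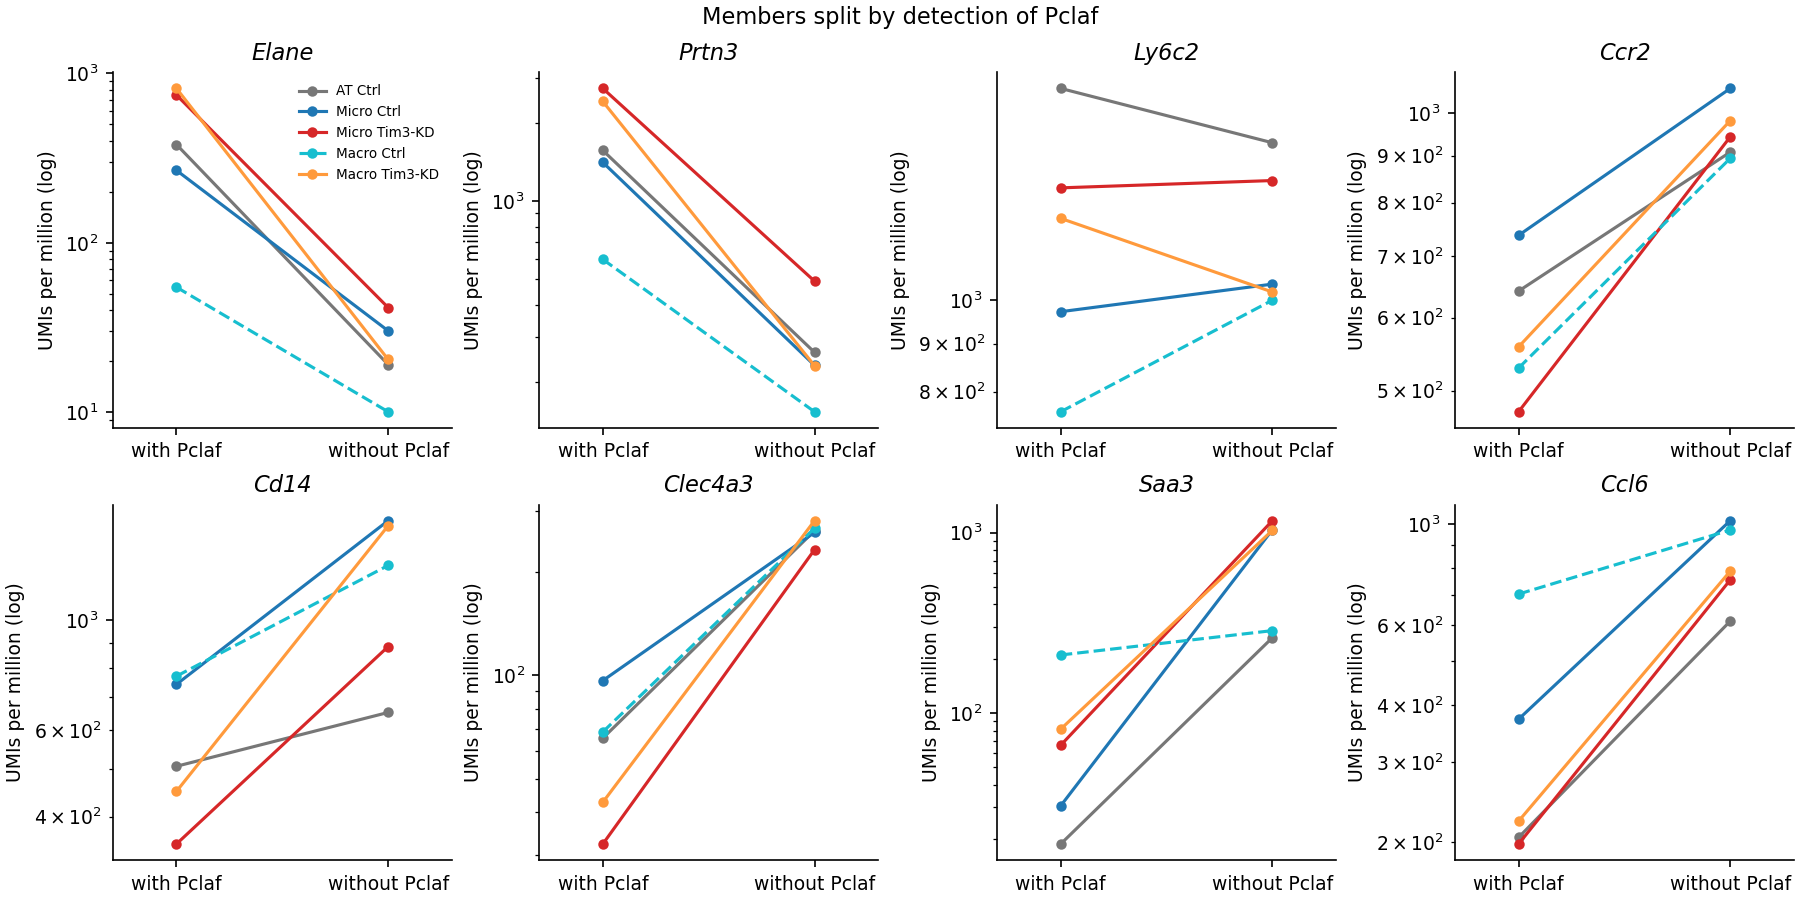
Level of 8 genes in members with and without a Pclaf UMI, in CPM on log axes, with 1 line per library (macrometastasis Ctrl dashed; 14 of its members hold Pclaf). Elane and Prtn3 fall from left to right in every library, Ly6c2 lies between 762 and 1681 CPM in both kinds, and Cd14, Clec4a3, Saa3 and Ccl6 are higher without Pclaf.

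In micrometastasis, the members of Tim3-KD were compared with those of Ctrl over 1869 genes with at least 50 UMIs in both libraries together. Past 2-fold, 39 genes were higher in Tim3-KD (2.09%) and 171 lower (9.15%), and the median log2 difference of all genes was -0.14. Relative to the trimmed mean of all genes, 54 were higher and 137 lower, so the share of calls that were higher moved from 18.6% to 28.3%. Mpo was 4.12-fold higher (exact binomial interval 3.67 to 4.65), Ctsg 3.84-fold (3.51 to 4.20), Ms4a3 3.43-fold (2.86 to 4.14) and Elane 3.33-fold (3.05 to 3.63). The Ctrl levels rested on few cells: Mpo, Ctsg, Ms4a3 and Elane were found in 42, 54, 32 and 64 of 173 members, and 5 cells held 54.8, 57.0, 56.4 and 33.0% of their UMIs. In Tim3-KD they were found in 183, 208, 157 and 229 of 319 members, and 5 cells held 20.4, 18.4, 15.2 and 12.3%. The sum of the 5 granule genes rose from 1658 to 4562 CPM in the members. It also rose outside them, from 156 to 317 CPM in the other Ccr2 monocytes and from 11540 to 19880 CPM in the Fcnb/Cebpe cells. In neutrophils with at least 2 Cxcr2 UMIs it fell from 1037 to 882 CPM. How far the rise is particular to the members was not tested. The ribonuclease gene Rnase2a went from 25.04 to 136 CPM (5.41-fold), H1f5 was 2.81-fold higher and the G1 kinase gene Cdk6 2.83-fold, and lower levels were seen for Gpx3 (8.23 and 23.1 CPM) and Fkbp11 (2.40 and 7.38 CPM), also higher in Tim3-KD. In the myeloid progenitor list 5 of 9 tested genes were higher past 2-fold, with a list median of 1.198. Markers of neutrophil precursors moved with them: Fcnb and Cebpe summed to 38.4 and 63.1 CPM, and 6.36% and 16.9% of members held 3 of their UMIs. The neutrophil precursor list summed to 2560 and 6458 CPM, with 6 of 9 tested genes higher and 1 lower. It also holds granule genes and Chil3, a gene of the classical monocyte list, so it is in part a second count of the same genes. Over the genes held at all 3 sites, that list rose from 1803 to 6354 CPM in the other Ccr2 monocytes. The part of neutrophil precursors in the result was not tested. In the mitosis list 1 of 18 was past 2-fold, but 17 of 18 lay above 0, with a median of 0.36, and in the replication list 6 of 7 lay above 0, with a median of 0.56.

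Class II genes were among those with the widest differences on the lower side. H2-Aa went from 402 CPM in Ctrl to 29.2 CPM in Tim3-KD (ratio 0.073, 0.062 to 0.085), H2-Ab1 from 308 to 22.9 CPM and H2-Ea from 261 to 21.2 CPM. They rested on few cells: H2-Aa was found in 47 of 173 and in 19 of 319 members, and 5 cells held 40.6% and 88.5% of its UMIs. The other Ccr2 monocytes differed in the same direction for H2-Aa, from 2143 to 683 CPM. Of 7 tested class II genes 5 were lower past 2-fold and 7 below 0, with a median of -1.65. Markers of other cells moved with them: 2 of 3 tested B cell genes were lower (89.2 and 53.0 CPM, summed), as were 2 of 2 hepatocyte genes (167 and 65.8 CPM). The 1 tested NK gene lay above 0. The part of other cells in the result was not tested. Il1b, the gene of interleukin 1 beta, went from 501 to 106 CPM (ratio 0.21, 0.19 to 0.23), Cd14 from 964 to 397 CPM, Ccl6 from 541 to 245 CPM and Isg15 from 98.4 to 35.0 CPM.

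By list, 8 of 35 tested interferon genes were lower past 2-fold and none higher, with 33 below 0 and a median of -0.76. Of 21 inflammatory genes 6 were lower and none higher, and of 18 chemokines and cytokines 7 were lower and 1 higher. The transglutaminase gene Tgm2 went from 76.8 to 4.49 CPM and the growth factor gene Hbegf from 16.8 to 0.642 CPM, and 5 cells held 61.2% and 63.3% of their Ctrl UMIs. Cd79a, a B cell gene, went from 17.2 to 0.802 CPM, and it was found in 3 members of Ctrl and 1 of Tim3-KD. Havcr2 went from 16.8 to 2.89 CPM. Chil3 was 2.30-fold higher (2.20 to 2.41).

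The share of members with Pclaf differed between the libraries, 57.8% in Ctrl and 82.1% in Tim3-KD, and moved with these results. Among members with Pclaf alone, Elane was 2.78-fold higher (2.55 to 3.04), Mpo 3.78-fold (3.34 to 4.30), Ctsg 3.16-fold (2.89 to 3.46) and H1f5 2.27-fold (2.13 to 2.43). H2-Aa was at a ratio of 0.084 (0.064 to 0.109) and Il1b at 0.29 (0.26 to 0.34). Top2a was 1.45-fold higher (1.33 to 1.59) there, against 1.79-fold (1.64 to 1.95) over all members. Among the 73 and 57 members without Pclaf, Mpo turned (50.01 and 11.3 CPM), while Elane (30.3 and 41.5 CPM) and Ctsg (17.1 and 28.3 CPM) were higher in Tim3-KD. Saa3 turned, at 0.55 over all members and 2.17 (1.66 to 2.86) among those with Pclaf. In B cells of these libraries the 5 granule genes summed to 70.0 CPM in Ctrl, over 512 cells, and to 12286 CPM in Tim3-KD, over 51 cells. After thinning, 9.57% of these cells in Ctrl and 11.8% in Tim3-KD held such a UMI, so the sums differed far more than the share of cells. The part of free granule RNA in the result was not tested.

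**Figure D5:**
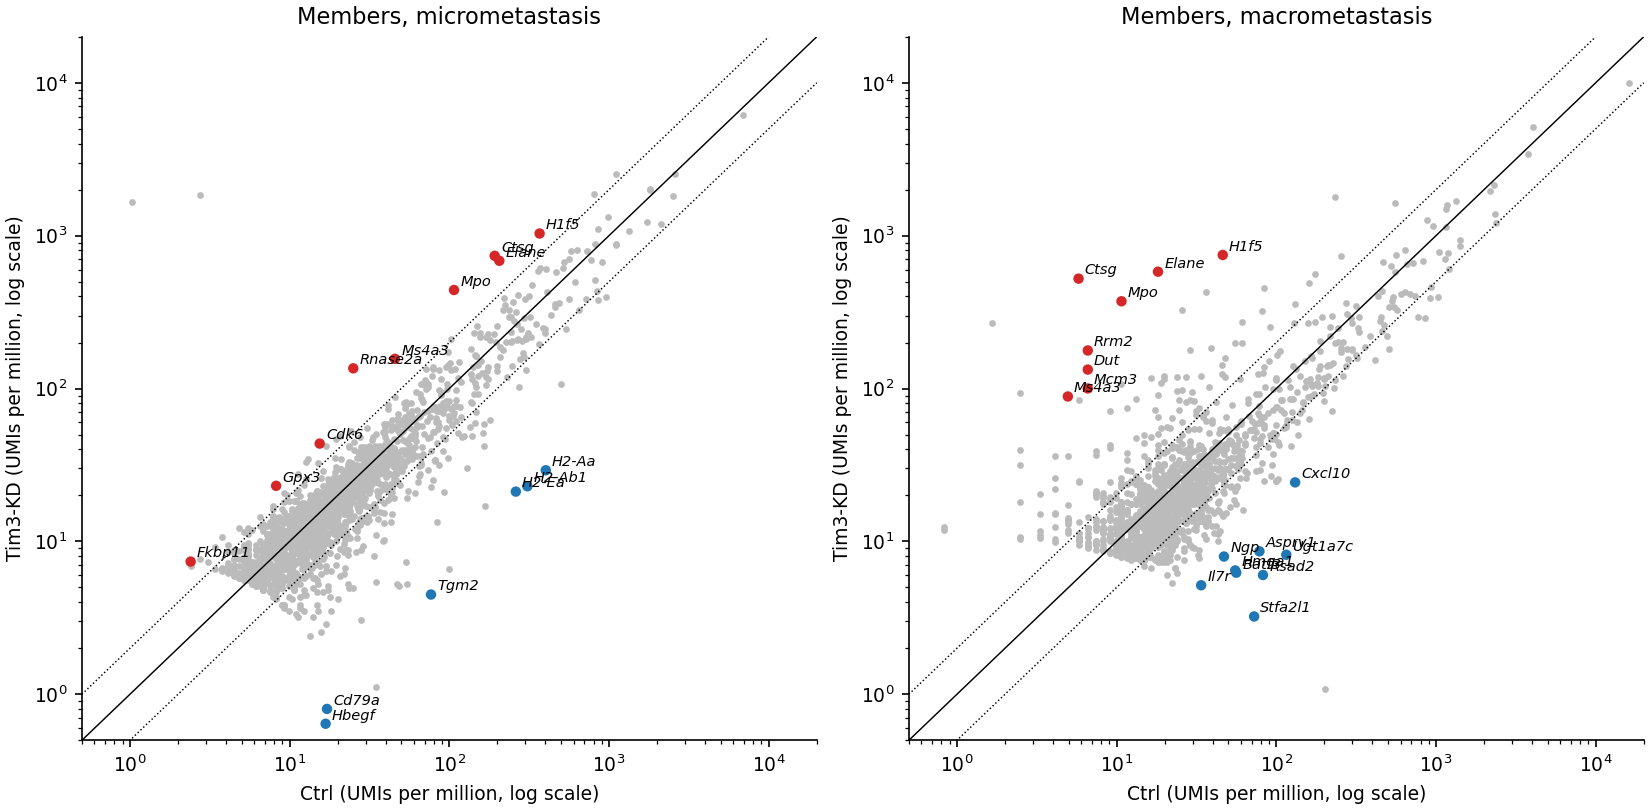
Level of each tested gene in members of Ctrl (x axis) and Tim3-KD (y axis) in micrometastasis (left) and macrometastasis (right), in CPM on log axes; the solid line marks equal levels, dotted lines 2-fold, and red and blue the named genes higher and lower in Tim3-KD. Genes at 0 in either library are not drawn, and features that join several genes stay grey. Mpo, Ctsg and Elane lie above the lines at both stages.

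In macrometastasis the same comparison covered 1357 genes, of which 138 were higher in Tim3-KD (10.2%) and 178 lower (13.1%), with a median log2 difference of -0.27. Relative to the trimmed mean of all genes, 188 were higher and 100 lower, so the share of calls that were higher moved from 43.7% to 65.3%. Division and granule genes were higher: Ctsg went from 5.78 to 523 CPM (90.6-fold, 43.9 to 226), Mpo from 10.7 to 372 CPM (34.7-fold, 20.2 to 65.3), Elane from 18.2 to 581 CPM (32.0-fold, 21.1 to 51.2), Rrm2 from 6.60 to 177 CPM (26.9-fold, 13.6 to 62.4), the dUTPase gene Dut 20.2-fold (10.2 to 46.9), Ms4a3 17.9-fold (8.16 to 49.1), H1f5 16.2-fold (12.4 to 21.5) and the replicative helicase subunit gene Mcm3 15.2-fold (7.63 to 35.3). All 7 tested replication genes and 21 of 25 mitosis genes were higher past 2-fold, as were 7 of 10 progenitor genes and 8 of 13 replication histone genes. Markers of neutrophil precursors moved with them: Fcnb went from 4.95 to 13.6 CPM and Cebpe from 3.30 to 15.1 CPM. The neutrophil precursor list summed to 2167 and 4447 CPM, with 6 of 11 tested genes higher and 2 lower. It also holds granule genes and Chil3, so it is in part a second count of the same genes. The part of neutrophil precursors in the result was not tested. The number of members with Pclaf moved with the division and granule genes as well, at 14 of 109 in Ctrl and 105 of 221 in Tim3-KD. The comparison was not made on members with Pclaf alone, since Ctrl had fewer than 20. In the 95 and 116 members without Pclaf, the 13 mitosis genes summed to 292 and 238 CPM and the 5 granule genes to 175 and 283 CPM. The granule genes summed to 132 and 191 CPM in the other Ccr2 monocytes and to 13356 and 20580 CPM in the Fcnb/Cebpe cells.

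On the lower side stood interferon, class II and chemokine genes: 14 of 34 tested interferon genes were lower past 2-fold and 34 of 34 below 0 (median -0.89), and past 2-fold lower were 5 of 6 class II genes (median -1.28), 7 of 18 chemokines and cytokines and 5 of 19 inflammatory genes. The share of members with 3 UMIs of the 9 class II genes was alike, at 32.1% in Ctrl and 32.6% in Tim3-KD. The class II difference, 2644 and 993 CPM summed, thus lay in the level and not in the share of members. H2-Aa stood at 1033 and 396 CPM, Isg15 at 224.5 and 71.3 CPM, and Ugt1a7c, a glucuronosyltransferase gene found in 67 members of Ctrl, at 116 and 8.18 CPM; it shares exons with other genes of its cluster, so its count is uncertain. Batf3 stood at 56.1 and 6.24 CPM. The other named genes were held by few Ctrl cells: 5 cells held 98.1% of the UMIs of the interferon-inducible chemokine Cxcl10 (131 and 24.3 CPM), 90.0% of the antiviral gene Rsad2 (82.5 and 6.03 CPM), 94.7% of Asprv1 (78.4 and 8.61 CPM), 85.2% of Stfa2l1 (72.6 and 3.23 CPM), 80.7% of Ngp (47.0 and 7.97 CPM) and 80.5% of Il7r (33.8 and 5.17 CPM). The direction turned for Cxcl10 with scores scaled once and for Il7r without cells of the B, T, NK or Kupffer list, as given in the closing section. Asprv1, Stfa2l1 and Ngp are genes of neutrophils, and the mature neutrophil list summed to 864 CPM in Ctrl members and 410.0 CPM in Tim3-KD members, with 6 of 7 tested genes lower. Of the T cell list 4 of 4 tested genes were lower past 2-fold (148 and 49.3 CPM, summed). Of 3 hepatocyte genes 1 was lower and 3 lay below 0 (341 and 183 CPM), while of 4 Kupffer genes 3 lay above 0. The part of neutrophil, T cell and hepatocyte RNA in these differences was not tested.

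Between sites, the Ctrl members of micrometastasis were set beside those of AT at the same day 3, over 1320 genes: 85 were higher in micrometastasis (6.44%) and 29 lower (2.2%), with a median of 0.084. Il1b went from 64.6 to 501 CPM (7.76-fold, 6.64 to 9.12), Chil3 from 161 to 809 CPM (5.01-fold, 4.53 to 5.56) and Saa3 from 60.2 to 293 CPM (4.86-fold, 4.11 to 5.78), and 5 cells held 87.3% and 60.3% of the Saa3 UMIs. Tgm2 went from 6.17 to 76.8 CPM, Hbegf from 1.45 to 16.8 CPM, the syndecan gene Sdc4 from 3.63 to 35.0 CPM and Ccdc85b from 3.99 to 20.2 CPM. In micrometastasis 5 cells held 61.2% of the Tgm2, 63.3% of the Hbegf and 67.6% of the Sdc4 UMIs. Of 18 inflammatory genes 6 were higher and none lower, and of 16 chemokines and cytokines 4 were higher and 1 lower. Of 5 mature neutrophil genes 2 were higher and 5 lay above 0 (median 0.75), and their part in the result was not tested. Of 14 mitosis genes none passed, but 12 lay below 0. Of 10 replication histone genes 3 were lower and 8 lay below 0, and of 8 progenitor genes 2 were lower and 8 lay below 0. Among members with Pclaf, Il1b was 4.74-fold higher (3.89 to 5.81) and Chil3 4.78-fold (4.22 to 5.43), while Saa3 was 1.63-fold higher (1.09 to 2.45).

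The lower genes included lymphocyte genes held by few AT cells. Gzma, a granzyme gene, stood at 21.8 CPM in AT from 1 cell, and Ccl5 at 40.3 CPM from 6 cells. Nkg7 (14.9 and 5.15 CPM), Cd2 (13.4 and 4.802 CPM) and Ptprcap (15.2 and 5.83 CPM) were each found in 11 members of AT. The T cell list summed to 93.6 CPM in AT and 4.46 CPM in micrometastasis Ctrl, and the NK list to 53.7 and 13.04 CPM. With cells that held 3 UMIs of the B, T, NK or Kupffer list removed, Gzma, Ccl5, Cd2 and Ptprcap turned, as given in the closing section. The heat shock gene Hspa1b (34.8 and 8.58 CPM), Slamf1 (31.2 and 10.6 CPM) and Gigyf1 (14.1 and 4.46 CPM) were lower as well.

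Day and size of the lesion differ together between micrometastasis and macrometastasis and cannot be told apart. In Ctrl, 142 of 807 genes were higher in macrometastasis (17.6%) and 73 lower (9.05%), with a median of 0.37; relative to the trimmed mean, 69 were higher and 116 lower, so the share of calls that were higher went from 66.0% to 37.3%. The lower genes were again those of division and granules: all 5 tested replication genes, 12 of 16 mitosis genes and 6 of 8 progenitor genes, with Ctsg at 192 and 5.78 CPM, Rrm2 at 155 and 6.60 CPM, the ligase gene Lig1 at 78.9 and 5.78 CPM, Dut at 99.8 and 6.60 CPM and Top2a at 219.5 and 25.6 CPM. The number of members with Pclaf, 100 of 173 and 14 of 109, moved with these genes, as did both Fcnb and Cebpe, lower past 2-fold. Of the neutrophil precursor list, which counts granule genes again, 6 of 9 genes were lower as well. On the higher side stood 5 of 7 mature neutrophil genes, with a list sum of 406 and 933 CPM, and 2 of 2 T cell genes. Their part in the result was not tested. Of 6 class II genes 5 were higher and none lower, with a list sum of 979 and 2621 CPM. Of 28 interferon genes 12 were higher and none lower (median 0.85), and the arrestin gene Arrdc4 went from 14.4 to 92.4 CPM in 51 cells. The named Cxcl9, Cd3g, Ccl5, Asprv1, Cxcl10, Stfa2l1, Acod1 and Rsad2 each had 85.2 to 100% of their macrometastasis UMIs in 5 cells, and Cd3g and Cxcl10 turned under alternatives given in the closing section.

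In Tim3-KD, 142 of 1185 genes were higher in macrometastasis (12%) and 17 lower (1.43%), with a median of 0.24; relative to the trimmed mean, 97 were higher and 31 lower (75.8% of calls higher, against 89.3%). None of 17 mitosis genes, 5 replication genes and 10 progenitor genes was lower past 2-fold, with list medians of -0.12, -0.37 and -0.24. With 1.43% of all genes lower, few of such short lists would pass in any case. Members with Pclaf went from 82.1% to 47.5%, and members with 2 mitosis UMIs after thinning from 71.2% to 42.5%. Fcnb and Cebpe summed to 63.1 and 28.6 CPM. A decline of dividing members was thus seen in Tim3-KD too. All 6 tested class II genes were higher, beside 5 of 6 in Ctrl: H2-Aa stood at 29.2 and 396 CPM (13.6-fold, 11.6 to 15.9), H2-Ea at 21.2 and 294 CPM, H2-Ab1 at 22.9 and 290.5 CPM and H2-Eb1 at 17.01 and 182 CPM. H2-Aa was found in 19 of 319 and 47 of 221 members. With these, 4 of 4 tested T cell genes, 4 of 4 Kupffer genes and 3 of 3 hepatocyte genes were higher past 2-fold, and their part in the result was not tested. Ltb, the lymphotoxin beta gene, stood at 5.14 and 49.5 CPM in 101 members of macrometastasis, and B3gnt2 at 0.802 and 18.9 CPM. Clec4f, a gene of Kupffer cells, stood at 0.963 and 10.1 CPM, from 18 members. Chil3 was lower, at 1861 and 861 CPM (ratio 0.46, 0.45 to 0.48), as were the ribonuclease gene Ear2 (30.3 and 11.6 CPM), H2bc4 (255 and 99.5 CPM), Crispld2 (14.4 and 4.31 CPM), Selp (9.47 and 4.09 CPM), Sema6b (6.42 and 2.80 CPM), Fkbp11 (7.38 and 2.80 CPM) and the stefin genes Cstdc4, Stfa2l1 and Stfa2.

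Of the genes of clotting and matrix, F10, the gene of factor X, stood at 167, 248, 205, 187 and 177 CPM in the members, Vcan at 104, 197, 201, 243.5 and 202 CPM, Thbs1 at 149, 208, 187, 692 and 413 CPM and Fn1, a rule gene, at 606, 854, 1100.2, 1408 and 932 CPM. None of 8 tested genes of that list in micrometastasis and none of 11 in macrometastasis passed 2-fold between Tim3-KD and Ctrl, where 2.09% of all genes were higher and 9.15% lower in micrometastasis and 10.2% and 13.1% in macrometastasis, so few of so short a list would pass in any case. Markers of other cell types were present in the members. The mature neutrophil list summed to 249.97, 356, 406, 864 and 410.0 CPM. The neutrophil precursor list summed to 2533, 2574, 6464, 1833 and 4264 CPM. It holds granule genes given above and Chil3, a gene of the classical monocyte list, so its sum is not wholly a separate sign of another cell type. The T cell list summed to 93.6, 4.46, 18.5, 196 and 66.1 CPM, the NK list to 53.7, 13.04, 18.1, 65.2 and 67.2 CPM and the B cell list to 88.5, 114, 53.9, 76.8 and 59.0 CPM. Hepatocyte genes summed to 95.1, 169, 69.3, 347 and 186 CPM. The T cell and hepatocyte sums were highest in macrometastasis Ctrl, and their part in the results was not tested.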

How the data were processed

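Each of the 6 libraries held CD45+ liver cells from a pool of 2 mice, prepared with 10x Genomics 3' chemistry. Per the study's methods the authors trimmed reads with Trim Galore 0.4.3, aligned them with STAR 2.7.7a to GRCm38, counted exonic and intronic UMIs, kept cells with 1000 to 500000 UMIs and removed doublets with scrublet. The deposited values are scores, made by the authors from log-normalised UMIs with total UMIs regressed out, scaled per gene within a site and held at or below 10. They were inverted to UMIs here: at least 99.9965% came out whole within 0.05. The matrices held 4486 (AT), 2669 (micrometastasis) and 2643 (macrometastasis) genes, which took between 11.3% and 14.7% of all UMIs, and other genes were not analysed here.

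Members were taken by the rule, and levels are summed UMIs per 1000000. The members and gene lists were chosen with earlier results of these data known. Genes with at least 50 UMIs were called past 2-fold with 0.5 added to each sum. The text names the 10 genes of highest and 10 of lowest ratio (15 each within libraries), without rule genes, ribosomal, mitochondrial and immune receptor genes, gene models and joined features, and members of the lists. Intervals are exact Poisson (levels), Clopper-Pearson (shares), Newcombe (differences) and exact binomial (ratios). On simulated data, 99.4% and 100% of genes changed 4-fold were called in micrometastasis and macrometastasis (1830 and 1325 genes). Of the unchanged genes 0.181% and 1.21% were called. Alternatives are given in the closing section. Results on some items that the naming rule covers are not reported here. Python 3.11.15, numpy 2.4.6, scipy 1.17.1 and pandas 2.3.3 were used, with gene positions from GENCODE M21 and promoters from RefSeq.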

Additional observations from a re-analysis of the deposited data

How the results depend on the processing

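No paired analysis was possible because each group had 1 library. Leaving out a replicate was likewise not possible. The share of cells in AT Ctrl, micrometastasis Ctrl and Tim3-KD, and macrometastasis Ctrl and Tim3-KD was 3.83, 2.29, 5.10, 1.36 and 3.16% with limits narrower by 0.2, and 7.54, 4.47, 8.21, 2.99 and 5.05% with limits wider by 0.2 (AT Tim3-KD 0.738%). With scores scaled once over all libraries it was 6.77, 4.43, 7.10, 0.814 and 2.96%, and over Ccr2 monocytes 46.2, 24.2, 48.6, 36.8 and 52.1%. Among the cells left without those holding 3 UMIs of another cell type list it was 31.0, 10.4, 27.0, 22.3 and 17.4%. Under that setting macrometastasis Tim3-KD lay below Ctrl, with only 9 to 54 members left per library, and comparisons between libraries were not run. Chosen after seeing the data, removal by the B, T, NK or Kupffer list alone gave 8.89, 6.02, 10.2, 4.48 and 8.93%, and members with a Pclaf UMI made up 3.55, 1.96, 5.10, 0.285 and 1.91%.

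With at least 20 UMIs, 494 genes passed 2-fold in macrometastasis Tim3-KD over Ctrl (316 with 50), 201 in Ctrl micrometastasis over AT (114), 391 in Ctrl macrometastasis over micrometastasis (215) and 261 in Tim3-KD macrometastasis over micrometastasis (159), where more genes were tested. In members with a Pclaf UMI the counts were 131 in micrometastasis Tim3-KD over Ctrl (210), 60 in Ctrl micrometastasis over AT, 81 in Tim3-KD macrometastasis over micrometastasis and 175 against the other Ccr2 monocytes (32). The last was 8 without cells of another type list and 103 without macrometastasis Ctrl. Relative to the trimmed mean, the higher share of calls in members over Fcnb/Cebpe cells went from 73.6 to 57.1%.

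The share of members with 2 mitosis UMIs was 91.2, 78.0, 89.3, 45.0 and 71.9% without thinning. It was 33.6, 23.0, 48.2 and 33.7% in AT Ctrl, micrometastasis Ctrl and Tim3-KD and macrometastasis Tim3-KD with Pclaf left out of the rule, and 70.3, 66.0, 85.5 and 79.0% in members with Pclaf.

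The log2 difference turned for few of the genes named by rank, beside Saa3 as given above. Without B, T, NK or Kupffer list cells it was 0.65 for Il7r in macrometastasis Tim3-KD over Ctrl, 2.08, 0.68, 0.21 and 0.55 for Gzma, Ccl5, Cd2 and Ptprcap in Ctrl micrometastasis over AT, and -0.16 for Cd3g in Ctrl macrometastasis over micrometastasis. In members with Pclaf, Gzma, Cd2 and Ptprcap gave 0.085, 0.25 and 0.085, and Cxcl9 gave -4.49 in Tim3-KD macrometastasis over micrometastasis. With scores scaled once, Cxcl10 gave 1.09 in macrometastasis Tim3-KD over Ctrl and -0.21 in Ctrl macrometastasis over micrometastasis, and Cd3g gave -0.78. The cause was not tested.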
